A study of Mus musculus with 36 samples.

Results

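The Myc and Max network was examined as 8 genes of the deposited count table: Myc, Mycn, Mycl, Max, Mnt, Mxi1, Mxd3 and Mxd4. The members were listed by name, matched to mouse Ensembl identifiers, and all 8 of 8 were found once among the 49671 genes of the table. RNA sequencing had been run on 36 libraries of mouse embryonic stem cells (mESCs, labelled 129m wt), all grown with serum, in 11 groups. At 48 h, soft and stiff hydrogels each carried 4 media: serum alone, with LIF, with PD03, or with both. Each had 3 libraries, except soft serum+PD03 with 6. Soft and stiff hydrogels at 24 h and tissue culture plastic at 48 h, all in serum+LIF, completed the set with 3 libraries each. LIF is a cytokine that supports self-renewal of mESCs, and PD03 (PD0325901) inhibits MEK, the kinase that activates ERK. The hydrogels (StemBond) were polyacrylamide gels with tethered fibronectin. The questions the groups address were how stiffness, LIF and MEK inhibition act on the transcriptome. By the sample descriptions, libraries were sequenced in 3 pools. All 24 h and plastic libraries were in the first, stiff 48 h libraries in the second except for 1 of 3 in serum+LIF (first), and soft 48 h libraries in the third except for 2 of 6 in serum+PD03 (second).

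Myc proteins are transcription factors that bind DNA as pairs with Max, at the E-box. The Mxd proteins, Mxi1 and Mnt compete with Myc for Max and recruit Sin3 corepressors, so the network balances activation against repression of growth genes. In mESCs, Myc and Mycn are known for their part in proliferation and self-renewal. A lower level of a transcript in these bulk libraries can come from fewer cells of a type or from less RNA per cell, and the 2 cannot be told apart.

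The network's own binding site was searched for in promoters of the members. RefSeq windows of 300 bases on GRCm38.p6 (250 bases before the transcription start and 50 from it on) were on hand for 7 of the 8 members. The E-box CACGTG, which reads the same on both strands, was present in windows of 3 of these 7 genes (42.9%), against 8.09% of 27025 genes with a window. The stretches that hold it are shown for Max, Mnt and Mxd4, with the E-box in capitals, because this is the sequence that Myc and Max pairs bind. Counted from the transcription start with no position 0, the E-box began at -3 in Max (minus strand, chr12:76962216-76962281), at -123 in Mnt (plus strand, chr11:74830771-74830836) and at -219 in Mxd4 (minus strand, chr5:34187894-34187959).
Max: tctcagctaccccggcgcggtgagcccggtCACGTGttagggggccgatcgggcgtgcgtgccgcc
Mnt: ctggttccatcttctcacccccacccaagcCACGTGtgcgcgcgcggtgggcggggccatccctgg
Mxd4: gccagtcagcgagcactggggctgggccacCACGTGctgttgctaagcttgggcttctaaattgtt

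The windows of Mycn and Mycl are shown whole, because these paralogs moved in opposite directions when PD03 was added. Neither held CACGTG, the ETS site CCGGAAG (on 8.86% of the 32851 windows, both strands), the STAT site TTCNNNGAA (8.3%) or the AP-1 site TGANTCA (7.81%), so no base is in capitals. No member window held any of the last 3 motifs, which says only that these letters are not in these windows. The Mycn window was on the minus strand at chr12:12941787-12942086 and the Mycl window on the plus strand at chr4:122995681-122995980.
Mycn: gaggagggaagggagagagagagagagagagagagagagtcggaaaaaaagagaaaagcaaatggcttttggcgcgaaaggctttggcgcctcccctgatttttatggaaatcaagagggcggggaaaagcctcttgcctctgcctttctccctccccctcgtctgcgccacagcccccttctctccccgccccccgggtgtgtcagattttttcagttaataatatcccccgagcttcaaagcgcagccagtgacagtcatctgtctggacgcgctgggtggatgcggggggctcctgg
Mycl: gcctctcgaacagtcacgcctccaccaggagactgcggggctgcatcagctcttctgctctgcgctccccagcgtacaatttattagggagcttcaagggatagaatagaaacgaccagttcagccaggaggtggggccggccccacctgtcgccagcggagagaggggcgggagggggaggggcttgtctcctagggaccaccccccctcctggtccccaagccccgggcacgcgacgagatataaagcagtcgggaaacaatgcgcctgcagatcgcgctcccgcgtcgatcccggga

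Myc (ENSMUSG00000022346) lies on the plus strand of chromosome 15 at 61985391 to 61990374 of GRCm38, Mycn (ENSMUSG00000037169) on the minus strand of chromosome 12 at 12936093 to 12941914, and Mycl (ENSMUSG00000028654) on the plus strand of chromosome 4 at 122995652 to 123002485. Max (ENSMUSG00000059436) is on the minus strand of chromosome 12 at 76937269 to 76962201. The repressive partners are Mnt (ENSMUSG00000000282, chromosome 11, 74830920 to 74845725, plus strand), Mxi1 (ENSMUSG00000025025, chromosome 19, 53310518 to 53375810, plus strand), Mxd3 (ENSMUSG00000021485, chromosome 13, 55325168 to 55329823, minus strand) and Mxd4 (ENSMUSG00000037235, chromosome 5, 34173883 to 34187720, minus strand). Exons of Mxd3 overlap the antisense gene Prelid1, which had 2622 to 6498 counts per library against 69 to 221 for Mxd3, and the strand setting of the counting was not stated, so a share of Mxd3 reads cannot be told apart from Prelid1. Mxi1 and Mxd4 overlap exons of Gm10197 and Gm42846, which had at most 1 count in any library.

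The libraries held 10405696 to 26635239 counts, and levels are given as CPM (counts scaled to a common library size, by TMM). All 8 members passed the filter on low counts, which kept 17702 genes. Pluripotent cell markers were high in every library (Pou5f1 474 to 695 CPM, Sox2 239 to 369 CPM), and 6 fibroblast markers were low: Thy1 ranged from 1.78 to 13.7 CPM and Col1a2 from 1.12 to 7.81 CPM, Postn, Dcn and Twist2 reached at most 2.86, 1.73 and 0.544 CPM, and Lum at most 0.188 CPM. As a check of the PD03 label, 5 of 5 ERK readout genes fell in all 4 comparisons with PD03, and Spry4, an ERK feedback inhibitor, ranged from 0.197 to 144 CPM over all libraries. A tested gene was called at an adjusted p under 0.05 in edgeR's quasi-likelihood test, adjusted by Benjamini-Hochberg over all 17702 genes. The labels do not say that libraries came from separate cultures, so p-values measure the spread between these libraries only.

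Per kilobase of exon, so that genes can be compared, Myc and Mycn were the most abundant members. Without PD03 the mean over libraries was 99.4 CPM per kb for Myc and 76.1 CPM per kb for Mycn. Max, the common partner, followed with 29.2 CPM per kb and Mnt with 23.7 CPM per kb. Mxi1 (4.68), Mxd3 (3.79), Mycl (1.93) and Mxd4 (0.631 CPM per kb) were lower. With PD03 the order of the paralogs changed: Mycn had 45.5 CPM per kb, Myc 15.7 and Mycl 7.61. Max was then 30.4 and Mnt 26.9 CPM per kb. The length used decides the order of the leading pair over all libraries: Myc had 64.5 and Mycn 63.4 CPM per kb of exon, but 75.0 and 78.1 per kb of the longest transcript, and Max went from 29.7 to 55.1.

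The paralogs were the members that differed most between groups. Myc, the broadly expressed paralog, showed a 7.66-fold range of group means, Mycl (first known from lung cancer) a 5.44-fold range, and Mycn, known from neuroblastoma, a 2.10-fold range. Among the others the range was 1.84-fold for Mxi1, 1.57-fold for Mxd4, 1.39-fold for Mnt, 1.33-fold for Mxd3 and 1.12-fold for Max.

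**Figure D1:**
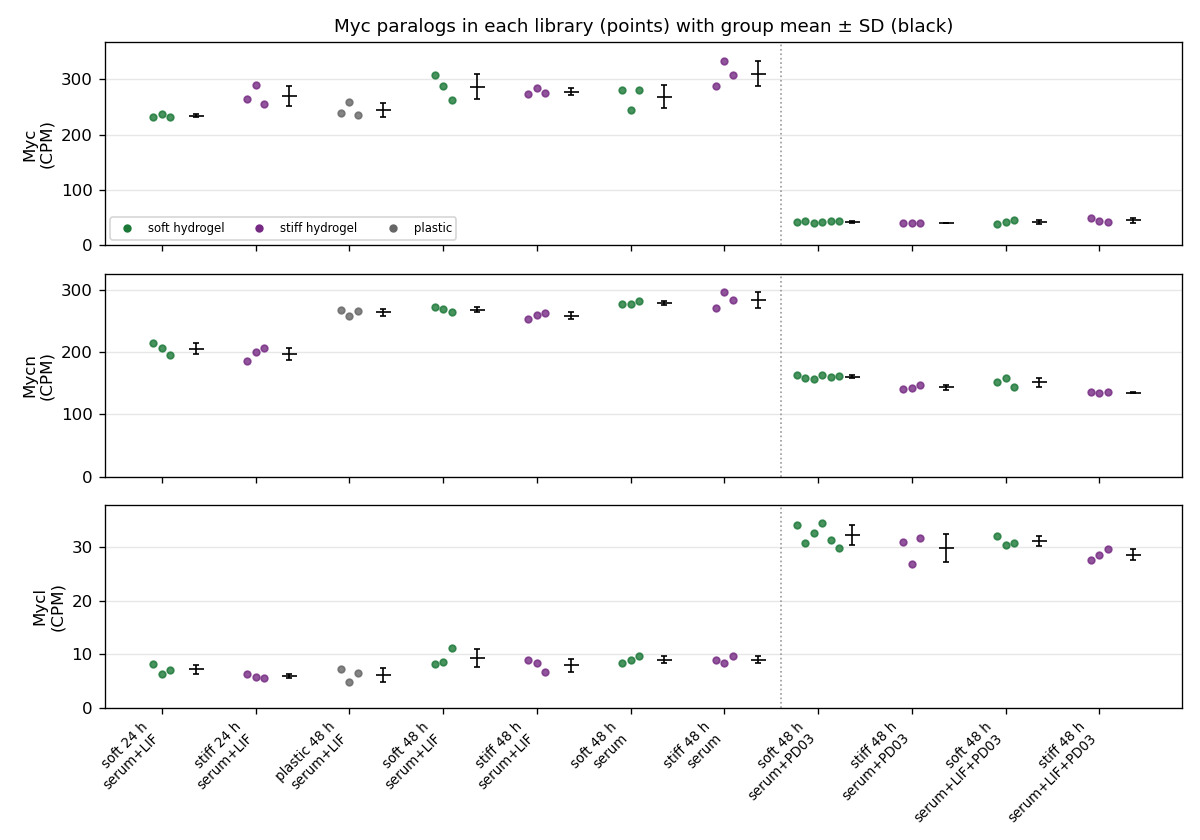
CPM (vertical axes, from 0) of Myc, Mycn and Mycl in each library (points) of the 11 groups (horizontal axis), with the group mean ± SD in black; the dotted line separates groups without PD03 (left) from groups with it (right). All Myc libraries with PD03 sit between 39.2 and 49.8 CPM and all without it between 232 and 333 CPM, while Mycl runs the other way.

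Addition of PD03 lowered Myc on both substrates and in both media. On soft hydrogels in serum the Myc libraries had 280.4, 244 and 281 CPM, and those with PD03 added had a lowest value of 40.9, a median of 42.6 and a highest of 44.6 CPM. On stiff hydrogels in serum they had 288, 333 and 308 CPM, against 41.1, 39.8 and 40.3 CPM with PD03. Every library with PD03 was far below every library without, and the groups did not overlap. Myc fell 6.30-fold on soft (log2 change -2.66 ± 0.05 SE, edgeR adjusted p = 5.17e-40) and 7.66-fold on stiff hydrogels (-2.94 ± 0.07, edgeR adjusted p = 3.03e-37).

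With LIF present the Myc values were alike. Soft hydrogels gave 308, 288 and 263 CPM in serum+LIF and 39.2, 42.3 and 45.2 CPM in serum+LIF+PD03. Stiff hydrogels gave 273, 284 and 276 CPM and 49.8, 43.4 and 42.0 CPM. Again no library of one medium reached the other. The log2 changes were -2.76 ± 0.07 SE on soft and -2.63 ± 0.07 on stiff hydrogels (edgeR adjusted p = 2.84e-36 and 1.01e-35). Only 192 to 271 of the 17702 genes fell by more than Myc in these 4 comparisons.

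Mycn fell less. In serum the soft libraries had 277, 278 and 283 CPM, and with PD03 157 at the lowest, 160.4 at the median and 164 at the highest. The stiff libraries had 271, 296 and 284 CPM, and with PD03 140.2, 143 and 147 CPM. The groups did not overlap, and the spread within each was small beside the gap. Mycn fell 1.74-fold on soft (log2 change -0.80 ± 0.04 SE, edgeR adjusted p = 1.79e-24) and 1.98-fold on stiff hydrogels (-0.98 ± 0.04, edgeR adjusted p = 7.01e-25). With LIF present the falls were -0.83 ± 0.04 and -0.94 ± 0.04 on the log2 scale.

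Mycl moved in the other direction. In serum the soft libraries had 8.34, 8.89 and 9.64 CPM, and with PD03 29.8 at the lowest, 31.9 at the median and 34.4 at the highest. The stiff libraries had 8.93, 8.46 and 9.61 CPM, and with PD03 31.01, 26.8 and 31.6 CPM. All libraries with PD03 were higher than all without. The rise was 3.60-fold on soft (log2 change 1.85 ± 0.10 SE, edgeR adjusted p = 1.40e-22) and 3.30-fold on stiff hydrogels (1.72 ± 0.11, edgeR adjusted p = 2.40e-19), and with LIF present it was 3.35-fold and 3.62-fold.

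**Figure D2:**
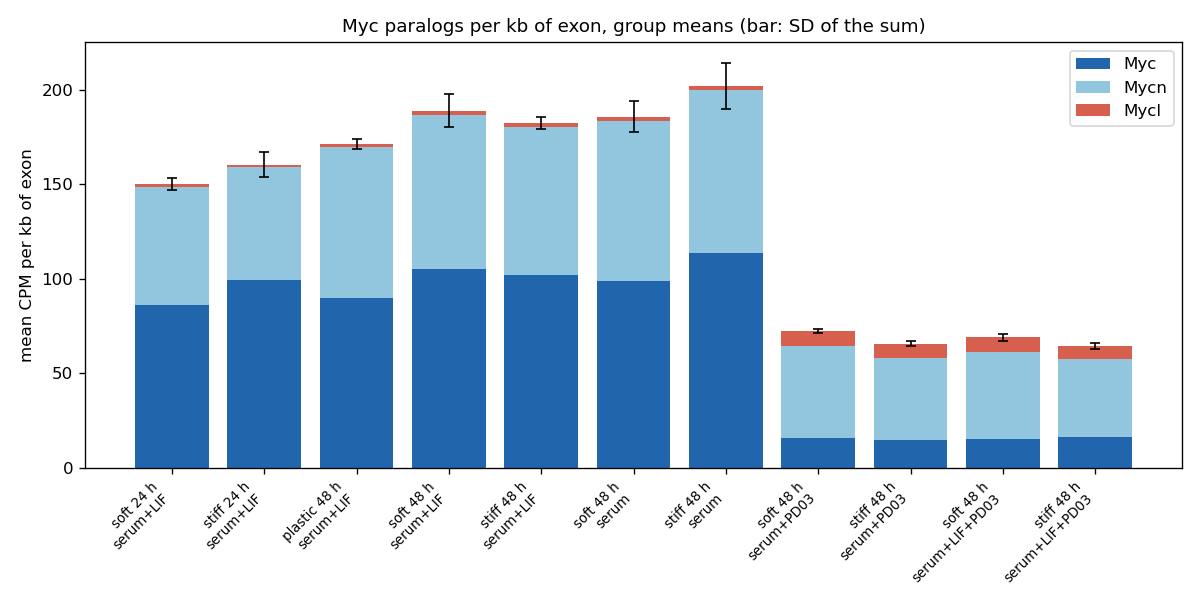
Group means of Myc, Mycn and Mycl in CPM per kb of exon (vertical axis), stacked for the 11 groups (horizontal axis), with the SD of their sum as a black bar. The sum is 150.3 to 202 CPM per kb in the groups without PD03 and 64.6 to 72.4 with it, and Myc is the larger part without PD03 and Mycn with it.

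The make-up of the paralogs changed with their sum. In stiff serum the sum of Myc, Mycn and Mycl was 202 ± 12.2 CPM per kb (SD, n = 3), of which Myc was 56.3%, Mycn 42.6% and Mycl 1.11%. In stiff serum+PD03 the sum was 65.7 ± 1.37 CPM per kb, of which Myc was 22.6%, Mycn 66.1% and Mycl 11.2%. The ratio of the sum to Max, per kilobase, was 6.98 ± 0.246 without and 2.19 ± 0.0685 with PD03. Against the summed Mnt, Mxi1, Mxd3 and Mxd4, the ratio was 6.46 ± 0.365 without and 1.83 ± 0.108 with PD03. Soft hydrogels gave 5.66 ± 0.222 in serum and 1.90 ± 0.0555 in serum+PD03 (n = 3 and 6). These are ratios of transcripts per exon length, not of proteins. The repressor sum leaves out Mga (377 to 489 CPM over all libraries) and Mxd1 (6.74 to 11.9 CPM). The ratio to Max depends on the length used, since Max had 29.7 CPM per kb of exon and 55.1 per kb of the longest transcript.

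Max, which every Myc and Mxd protein needs as its partner, varied little. Its 36 libraries lay between 93.4 and 119 CPM. Its log2 change with PD03 was 0.09 ± 0.05 SE and 0.05 ± 0.05 in serum, and 0.02 ± 0.05 on both substrates in serum+LIF, none called by edgeR. The 95% intervals of these 4 changes reached from -0.09 to 0.18. None of the 10 gaps between neighbours in the order of the 11 group means exceeded the larger SD.

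Among the repressive partners, Mxi1 and Mnt rose with PD03. Mxi1 had 32.7, 33.5 and 35.3 CPM in soft serum, and with PD03 47.5 at the lowest, 49.7 at the median and 54.6 at the highest. In stiff serum it had 33.8, 37.4 and 38.0 CPM, and with PD03 48.2, 44.1 and 45.9 CPM. The groups did not overlap on either substrate. Mxi1 rose by 0.57 ± 0.06 SE (log2) on soft and 0.34 ± 0.06 on stiff hydrogels in serum, and by 0.46 ± 0.06 and 0.42 ± 0.06 in serum+LIF (edgeR adjusted p from 9.08e-13 to 7.96e-06).

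Mnt, the broadly expressed Max partner, changed by less. It had 102, 102 and 99.9 CPM in stiff serum and 122, 118 and 112 CPM in stiff serum+PD03, with no overlap. Its log2 changes with PD03 were 0.18 and 0.21 in serum and 0.26 and 0.15 in serum+LIF, each with an SE of 0.05, all called by edgeR (largest adjusted p = 0.0117). The last of these, on stiff hydrogels, was lost when the first stiff serum+LIF+PD03 library was left out (edgeR adjusted p = 0.0902).

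Mxd3 and Mxd4, repressors known from differentiating or dividing cells, were low. Mxd3 had 9.16, 8.19 and 10.7 CPM in soft serum+LIF and 7.14, 7.37 and 8.17 in soft serum+LIF+PD03. The highest library with PD03 was just below the lowest without. The log2 change was -0.30 ± 0.12 SE (edgeR adjusted p = 0.0315), and on stiff hydrogels -0.41 ± 0.12 (adjusted p = 0.00325). In serum the values were -0.15 and -0.22, not called. Mxd4 was called only on stiff hydrogels in serum+LIF (0.48 ± 0.17, edgeR adjusted p = 0.0155), where its libraries had 6.04, 5.56 and 4.96 CPM and with PD03 7.15, 8.36 and 7.56 CPM, without overlap. The soft Mxd3 call was lost without a filter on low counts, with these groups alone, and without the first or the second soft serum+LIF+PD03 library or the third soft serum+LIF library, and the Mxd4 call without the third stiff serum+LIF or the second stiff serum+LIF+PD03 library. With a term for the sequencing pool, fitted over the 45 ways in which libraries can fall into pools, the Mxd4 call held in 30. Mxd4 on stiff hydrogels in serum (0.33 ± 0.18) was called when the second stiff serum+PD03 library was left out (edgeR adjusted p = 0.0306).

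**Figure D3:**
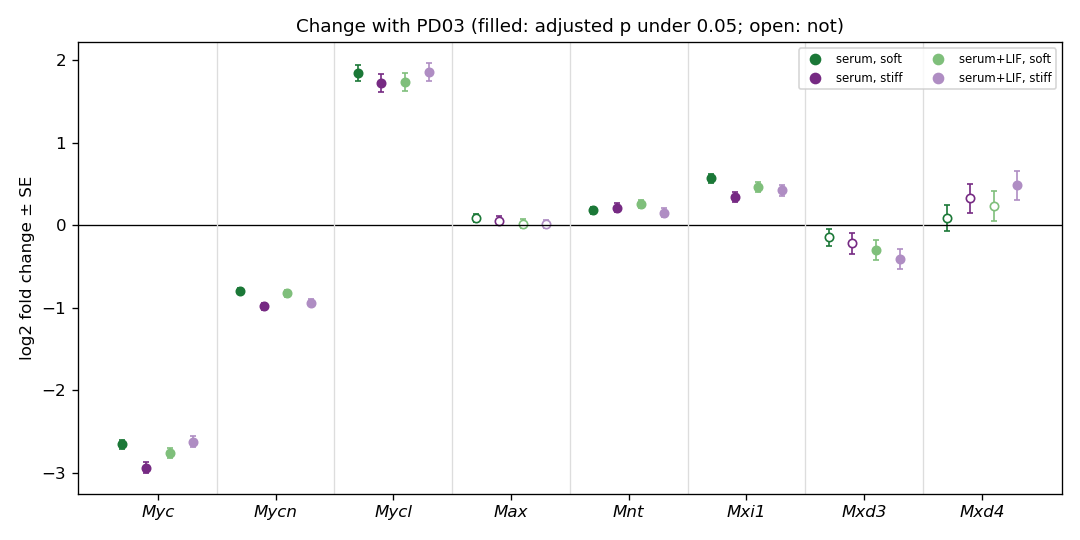
log2 fold change with PD03 ± SE (vertical axis) of each member (horizontal axis) in serum and serum+LIF on soft and stiff hydrogels; filled points passed an adjusted p of 0.05. Myc, Mycn and Mycl, Mnt and Mxi1 are filled in all 4 comparisons, Max in none.

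Counted over the network, 5 members were called on soft and 5 on stiff hydrogels in serum, 6 on soft and 7 on stiff hydrogels in serum+LIF. Of all genes, 57.5%, 55.8%, 54.4% and 56.2% were called in these comparisons, so a count of 5 to 7 of 8 is not far from the background. By libraries that do not overlap, 5, 6, 6 and 7 members separated, against 50.6% to 62.9% of all genes. The sizes of Myc and Mycl stood out more: 2.63% to 3.76% of genes had a larger absolute log2 change than Myc and 7.14% to 9.22% than Mycl. For Mycn the share was 22.4% to 26.8%. It was 36.5% to 57.9% for Mxi1 and 66.8% to 80% for Mnt, so their rises were not large beside those of other genes. Marker genes of other cell types moved with PD03 beside these results. The trophoblast markers Cdx2, Elf5 and Gata3 were called higher in 3 of 4 comparisons as 3 of 3 and in the other as 2 of 3, with a summed level of 81.4 to 123 CPM with PD03 and 9.24 to 36.2 CPM without it. The germ layer markers were called lower as 3 or 4 of 5, with a summed level of 15.9 to 21.4 CPM with PD03 and 47.8 to 73.7 CPM without it. Pluripotent cell markers summed to 2469 to 3001 CPM with PD03 and 1594 to 2199 CPM without it, and 2 to 4 of 5 were called higher. Primitive endoderm markers summed to 77.6 to 134 CPM with and 39.2 to 60.6 CPM without PD03, with 1 or 2 of 5 called higher and 1 or 2 lower. Fibroblast markers summed to 4.53 to 11.5 CPM with and 9.89 to 17.6 CPM without PD03. Single genes weighed most in some sums. Over all libraries Gata3 ranged from 7.65 to 113 CPM, Cdx2 from 1.31 to 10.5 and Elf5 from 0 to 0.861 CPM. Dab2, the highest of the primitive endoderm markers, ranged from 19.5 to 118 CPM, and Nanog from 168 to 903 CPM. The part of these markers in the changes of the members was not tested.

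The changes with PD03 were not called as different between soft and stiff hydrogels. For the difference of the stiffness effect by PD03 without LIF, edgeR called 0 members (0.797% of all genes called), 3 had an unadjusted p under 0.05, and DESeq2 called 2. The largest was Myc, by 0.28 ± 0.09 SE on the log2 scale (edgeR adjusted p = 0.107, 95% interval 0.11 to 0.45), and Myc was called without a filter on low counts. With LIF, 0 members were called (1.07% of genes), 0 had an unadjusted p under 0.05, and DESeq2 called 0.

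Other genes of the wider network were examined with the members. Of Mga, Mlx, Mlxip, Mlxipl and Mxd1, 3 were called higher and 2 lower with PD03 in soft serum, and 1 higher and 2 lower in stiff serum. With LIF present, 2 were higher and 2 lower on both substrates. Of all genes, 57.5% and 55.8% were called in soft and stiff serum, and 54.4% and 56.2% with LIF. Mlxipl, a glucose-responsive partner of Mlx, rose by 0.54 ± 0.13 SE and 0.62 ± 0.15 in serum and by 1.35 ± 0.16 and 0.98 ± 0.15 in serum+LIF on the log2 scale. Mlxip, its relative, fell by -0.29 and -0.49 in serum. Mga, a large Max-binding repressor, fell by -0.18 in soft and -0.12 in stiff serum, and by -0.15 and -0.11 in serum+LIF, its soft serum value being given after it was seen.

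Most listed genes that Myc is known to raise were lower with PD03. Whether this follows the fall of Myc was not tested, and MEK was inhibited in the same libraries. Of 18 listed genes of ribosome biogenesis, 18 were called lower in each of the 4 PD03 comparisons. Of all 17702 genes, 5038 and 4858 were called lower in soft and stiff serum, and 4711 and 4928 in soft and stiff serum+LIF. The medians of the list were -0.45, -0.57, -0.53 and -0.57 (log2), while the median of all genes was between -0.01 and 0.01. This list and the next were chosen with earlier results of these data known. Gnl3 (nucleostemin) fell by -0.88 ± 0.04 SE on soft and -0.91 ± 0.05 on stiff hydrogels in serum, and Ddx21, a nucleolar helicase, by -0.82 ± 0.03 and -1.04 ± 0.04. Of 15 listed genes of metabolism and cell cycle, 11 were lower and 2 higher in soft serum and 13 lower and 0 higher in stiff serum, and 12 and 13 were lower in serum+LIF. The 2 that rose were named after their values were seen. They were Hk2 (hexokinase, 0.15 ± 0.04) and Shmt2 (serine metabolism, 0.13 ± 0.04). Ccnd2, a D-type cyclin, fell by -4.12 ± 0.07 and -3.27 ± 0.09, and Odc1, of polyamine synthesis, by -1.13 ± 0.05 and -1.34 ± 0.06. The E-box CACGTG was in the promoter window of 4 of 14 ribosome biogenesis genes with a window (28.6%) and of 5 of 12 metabolism and cell cycle genes (41.7%). Of all 27025 genes with a window, 8.09% held it. The lists were picked as genes known to be raised by Myc. These shares therefore do not test whether the fall of the listed genes follows that of Myc.

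Stiffness changed few members, and by at most 1.18-fold where called. At 24 h in serum+LIF, Myc had 233, 238 and 232 CPM on soft and 265, 289 and 255 CPM on stiff hydrogels, and every soft library was lower. Its log2 change was -0.20 ± 0.06 SE (edgeR adjusted p = 0.0395). Mnt had 128, 133 and 123 CPM on soft and 116, 114 and 106 CPM on stiff hydrogels, all soft libraries being higher, with a change of 0.19 ± 0.05 (edgeR adjusted p = 0.0268). These 2 calls stood beside 3.55% of all genes called. By libraries that do not overlap, 3 members separated, against 17.1% of all genes. The Myc call was lost when any of these libraries but the third stiff one was left out, and the Mnt call without the second or the third stiff or the first or the second soft library. The Myc call was also lost with RLE scaling or total counts, and the Mnt call without a filter on low counts or with these groups alone. All 6 libraries were in the first pool.

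At 48 h in serum+LIF, 0 members were called by edgeR (0.78% of all genes), 1 had an unadjusted p under 0.05, and DESeq2 called 0. In serum 1 was called (4.85% of genes), Myc, with 280.4, 244 and 281 CPM on soft against 288, 333 and 308 on stiff hydrogels. The soft libraries were all below the stiff ones, by a log2 change of -0.20 ± 0.06 SE (edgeR adjusted p = 0.0291). In serum 2 members separated without overlap, against 20.4% of all genes. The Myc call was lost without the second or the third stiff serum library or the second soft serum library, and with these groups alone.

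With PD03 the called members were Mycn and Mxi1, and both were higher on soft hydrogels. In serum+PD03 (1 member called, 5.55% of genes) Mycn had 157, 160.4 and 164 CPM (lowest, median and highest) on soft and 140.2, 143 and 147 on stiff hydrogels, without overlap, a log2 change of 0.17 ± 0.04 SE (edgeR adjusted p = 0.00473). In serum+LIF+PD03 (2 called, 7.61% of genes) Mycn had 151, 158 and 144 CPM on soft and 135, 134 and 135 CPM on stiff hydrogels (0.17 ± 0.04, edgeR adjusted p = 0.0119). Mxi1 had 50.1, 49.3 and 53.3 CPM on soft and 42.8, 43.1 and 43.6 CPM on stiff hydrogels (0.24 ± 0.06, edgeR adjusted p = 0.00808). The soft libraries of both genes were all higher than the stiff ones. The Mycn call in serum+PD03 was lost without the first stiff library (edgeR adjusted p = 0.058). In serum+LIF+PD03 the Mycn call was lost without any single stiff library or the second soft one, and the Mxi1 call without the first stiff or the third soft library. Without a filter on low counts, which adds genes to the adjustment, all 3 of these calls were lost, while DESeq2 kept them and added Mnt in serum+LIF+PD03 (3 called). The stiffness and PD03 comparisons share these groups.

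Markers of cell types also differed between soft and stiff hydrogels. Pluripotent cell markers were called higher on soft hydrogels as 3 of 5 at 24 h in serum+LIF, 4 of 5 in serum, and 3 of 5 in both media with PD03. At 24 h their summed level was 1919 to 2199 CPM on soft and 1741 to 1778 CPM on stiff hydrogels. Of 3 trophoblast markers, 2 were called lower on soft hydrogels in serum+PD03, and 1 in each of the other comparisons that had a member called. In serum+PD03 their summed level was 81.4 to 88.4 CPM on soft and 103 to 109 CPM on stiff hydrogels. Fibroblast markers, 4 of which were tested, had 1 called lower on soft hydrogels in serum and in both media with PD03. ERK readout genes were called lower as 2 of 5 at 24 h, 1 of 5 in serum and 1 of 5 in serum+LIF+PD03, and 0 were called higher. The medians of the list were -0.23, -0.13 and 0.29 (log2), so in serum+LIF+PD03 the median gene was higher on soft hydrogels. In serum+PD03 0 were called, with a median of 0.02. Over all libraries Spry4 and Etv4 went down to 0.197 and 0.695 CPM. The part of these marker and readout genes in the changes of Myc, Mnt, Mycn and Mxi1 was not tested.

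Since soft 48 h libraries were mostly in the third pool and stiff ones in the second, pool and stiffness can hardly be told apart at 48 h. With a pool term, fitted over the 45 ways in which libraries can fall into pools, the Mycn change in serum+PD03 stayed between 0.14 and 0.19 and was called in 9 of 45, and in serum+LIF+PD03 was never called. Mxi1 in serum+LIF+PD03 was called in 6 of 45, and Myc in serum in 0 of 45.

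Against plastic in serum+LIF, soft hydrogels had 4 members called, all higher (11.8% of genes), and stiff hydrogels 0 by edgeR (5.54% of genes), with 4 at an unadjusted p under 0.05 and 1 called by DESeq2. Mycl had 8.09, 8.57 and 11.2 CPM on soft hydrogels and 7.19, 4.78 and 6.42 on plastic, the soft libraries all higher, by a log2 change of 0.60 ± 0.13 SE (edgeR adjusted p = 0.00110). Mxi1 had 35.9, 37.7 and 37.2 CPM on soft hydrogels and 30.2, 27.6 and 27.1 CPM on plastic, again without overlap (0.38 ± 0.07, edgeR adjusted p = 4.54e-05). From plastic, 4 members separated without overlap on soft and 3 on stiff hydrogels, against 24.7% and 22.7% of all genes.

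Myc (0.23 ± 0.06) and Mnt (0.22 ± 0.05) were also called on soft hydrogels against plastic, and both calls were lost without the first soft serum+LIF library (edgeR adjusted p = 0.0651 and 0.0525). Plastic and soft libraries were sequenced in different pools, and the pool term left 0 to 2 of the 4 calls. For stiff hydrogels over plastic, Myc (0.18 ± 0.06) and Mnt (0.17 ± 0.05) missed the threshold (edgeR adjusted p = 0.0588 and 0.0556). Both were called without the second plastic library, with total counts and with the compared groups alone, Myc also without a filter on low counts and Mnt also by DESeq2. Mycl (0.36 ± 0.14) was called without the third stiff serum+LIF library, and Mxi1 (0.18 ± 0.07) with total counts. Both hydrogel comparisons share the plastic libraries.

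**Figure D4:**
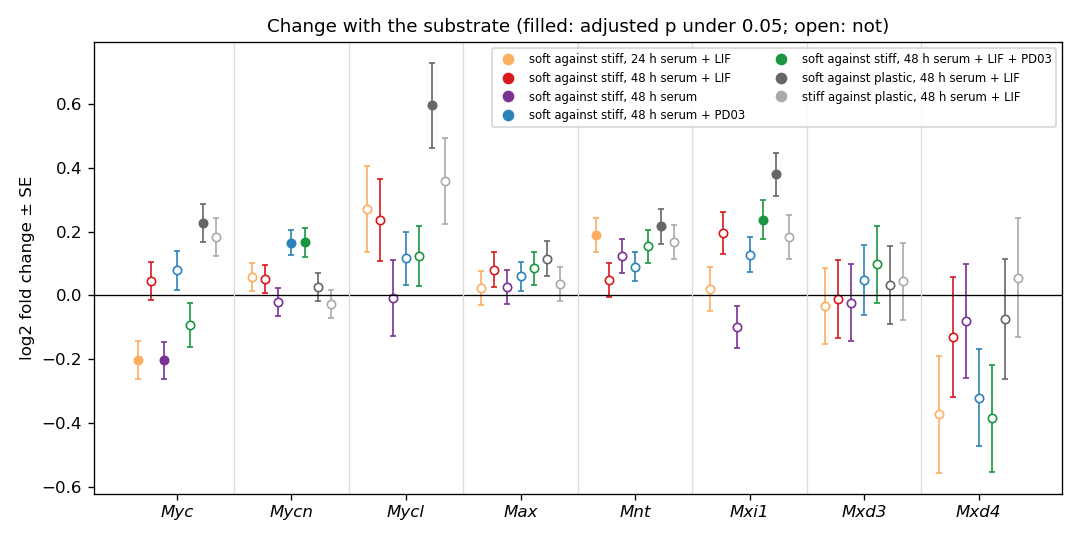
log2 fold change ± SE (vertical axis) of each member (horizontal axis) in 7 substrate comparisons; filled points passed an adjusted p of 0.05. The only changes above 0.3 in size that are filled are those of Mycl and Mxi1 for soft against plastic, and Mxd4 has the widest bars.

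LIF changed no member past the threshold. In serum on soft hydrogels edgeR called 0 members (0.0169% of all genes), 0 had an unadjusted p under 0.05, and DESeq2 called 0. In serum on stiff hydrogels it called 0 (1.41% of genes), 3 had an unadjusted p under 0.05, and DESeq2 called 1. With PD03 it called 0 on soft (0.107% of genes, 2 unadjusted, DESeq2 0) and 0 on stiff hydrogels (0.514%, 1 unadjusted, DESeq2 0). Of the LIF readout genes, 4 of 4 were called higher with LIF on stiff hydrogels in serum and 1 of 4 on soft hydrogels, and for the difference between substrates (stiffness by LIF without PD03) 0 of 4 were called by edgeR, 3 had an unadjusted p under 0.05, and the median was -0.25 (log2). The log2 changes of members in serum lay between -0.19 and 0.21, and the 95% intervals reached from -0.45 to 0.45, widest for the low members.

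Stiffness by LIF differences were not called for any member. Without PD03 edgeR called 0 (0.0847% of genes), 2 had an unadjusted p under 0.05, and DESeq2 called 0. With PD03 it called 0 (0.00565% of genes), 0 had an unadjusted p under 0.05, and DESeq2 called 0. For LIF by PD03 it called 0 on soft (0.0226% of genes, 0 unadjusted, DESeq2 0) and 0 on stiff hydrogels (1.09% of genes, 1 unadjusted, DESeq2 1). The stiff value was highest for Myc, at 0.31 ± 0.09 SE (edgeR adjusted p = 0.0836), and it was called without the third stiff serum+LIF+PD03 or the first stiff serum library, without a filter on low counts, with these groups alone and by DESeq2.

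**Figure D5:**
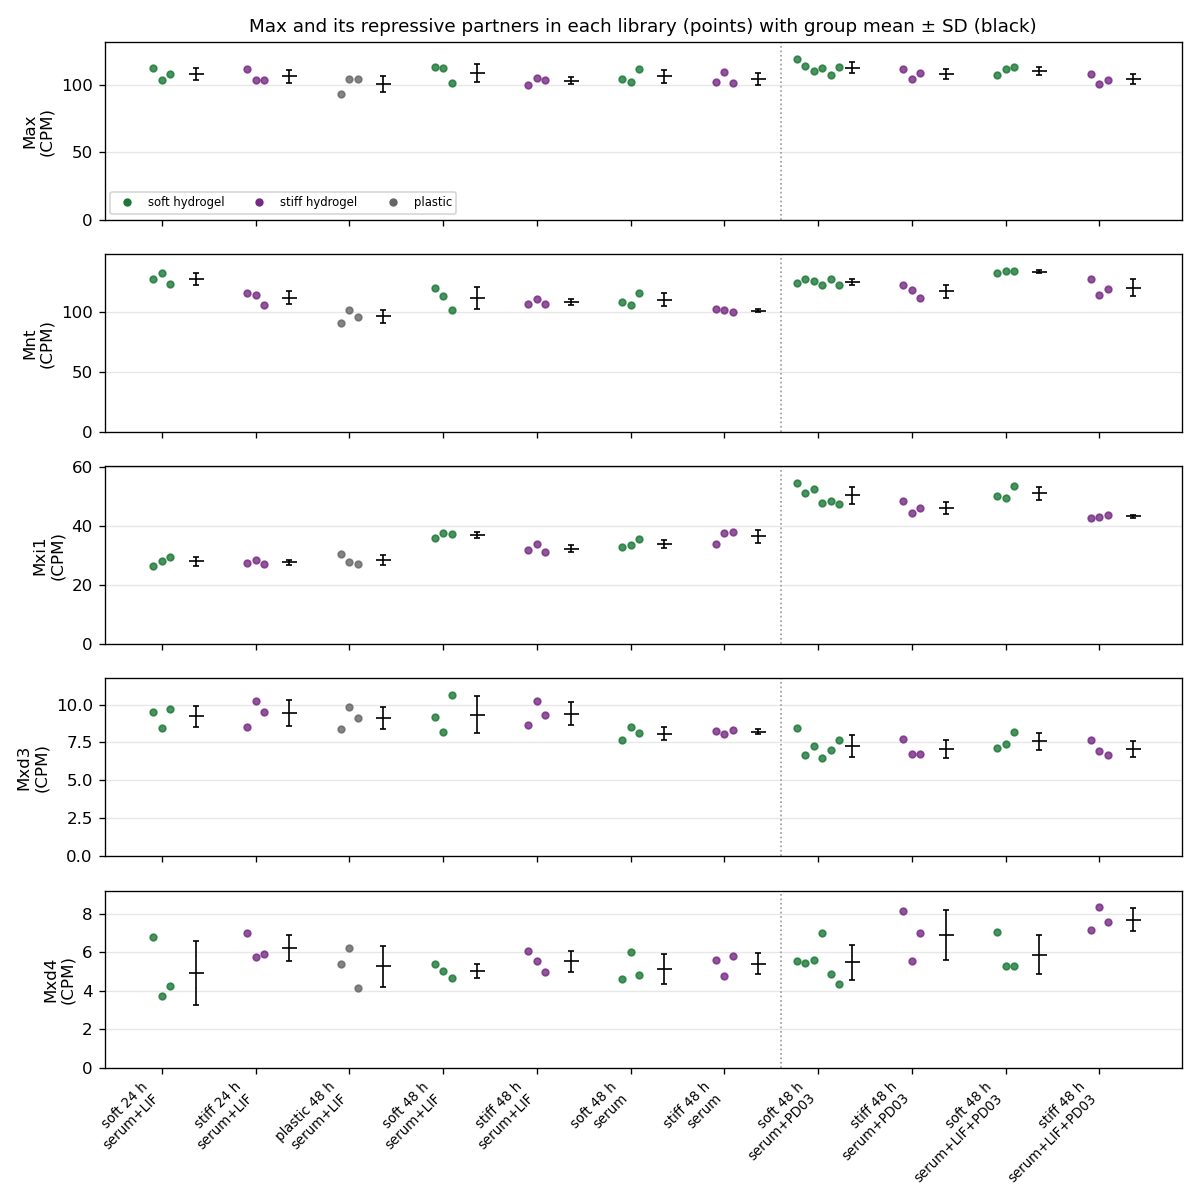
CPM (vertical axes, from 0) of Max, Mnt, Mxi1, Mxd3 and Mxd4 in each library (points) of the 11 groups (horizontal axis), with the group mean ± SD in black; the dotted line separates groups without PD03 (left) from groups with it (right). Mxi1 libraries lie at 26.3 to 38.0 CPM without and 42.8 to 54.6 with PD03, while Max libraries overlap throughout.

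Between 24 h and 48 h in serum+LIF, Mycn and Mycl were called on both substrates, and Mxi1 too. On soft hydrogels 5 members were called (24.4% of genes) and on stiff 3 (25.6%). By libraries that do not overlap, 4 members separated on soft and 3 on stiff hydrogels, against 33.7% and 38.2% of all genes. Mycn had 214, 207 and 196 CPM at 24 h and 272, 268 and 264 CPM at 48 h on soft hydrogels, with no overlap (log2 change 0.38 ± 0.04 SE, edgeR adjusted p = 3.32e-09). On stiff hydrogels it had 186, 199.5 and 206 CPM at 24 h and 253, 260.1 and 263 CPM at 48 h, again without overlap (0.39 ± 0.04, edgeR adjusted p = 1.14e-09). Mxi1 had 26.3, 28.1 and 29.3 CPM at 24 h and 35.9, 37.7 and 37.2 CPM at 48 h on soft hydrogels, a rise of 0.40 ± 0.07. On stiff hydrogels Mxi1 rose by 0.22 ± 0.07. Mycl rose by 0.38 ± 0.13 on soft hydrogels, where the lowest library at 48 h (8.09 CPM) was just below the highest at 24 h (8.10 CPM), and by 0.42 ± 0.13 on stiff hydrogels without overlap.

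On soft hydrogels Myc also rose by 0.29 ± 0.06 SE (edgeR adjusted p = 0.000187), and Mnt fell by 0.19 ± 0.05 (edgeR adjusted p = 0.00594). The difference of the time effect between substrates was called for 0 members by edgeR (0.254% of genes), 1 had an unadjusted p under 0.05, and DESeq2 called 0. On soft hydrogels the Mycl call was also lost with total counts or the compared groups alone, and the Mnt call without a filter. The Mycl call was lost without the second or the third 24 h or the third 48 h library, and the Mnt call without the second 24 h or the third 48 h library. On stiff hydrogels the Mycl call was lost without the third 24 h or the first or the second 48 h library, and the Mxi1 call without the third 24 h or the second 48 h library. The stiffness by time difference of Myc was 0.25 ± 0.08 and was called without the third soft 48 h library. The soft 24 h libraries were in the first pool and the soft 48 h libraries in the third. With the pool term Mycn was called in 41 of 45 assignments on soft and in 45 of 45 on stiff hydrogels, and Mxi1 in 12 of 45 and 15 of 45. Myc, Mycl and Mnt on soft hydrogels were called in 0 of 45, and Mycl on stiff hydrogels in 15 of 45.

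More of the listed genes that Myc is known to raise were called higher than lower at 48 h. Of ribosome biogenesis, 16 of 18 were higher on soft and 15 of 18 on stiff hydrogels (medians 0.25 and 0.17, all genes -0.03 and -0.01). Among all 17702 genes, 2291 and 2230 were called higher. Of metabolism and cell cycle, 10 of 15 and 11 of 15 were higher. Odc1 rose by 0.55 ± 0.06 SE and 0.54 ± 0.06, and Wdr12, a factor of large ribosomal subunit assembly, by 0.37 ± 0.07 on both substrates. Whether these rises follow those of the members was not tested. No pool term was fitted for these lists, which were chosen with earlier results of these data known. The soft 24 h libraries were in the first pool and the soft 48 h libraries in the third. Time and pool can hardly be told apart for these lists on soft hydrogels.

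The order of the 11 group means shows which differences exceed the spread. For Myc only 3 of 10 gaps between neighbours exceeded the larger SD of the pair, and the widest lay between soft 24 h serum+LIF and stiff serum+LIF+PD03, at 189 CPM. For Mycn 6 of 10 did, the widest between stiff 48 h and soft 24 h serum+LIF at 53.2 CPM. For Mycl 1 of 10 did, between stiff serum+LIF+PD03 and soft 48 h serum+LIF at 19.2 CPM. Mxi1 had 6, Mnt 2, Mxd3 1 and Max and Mxd4 none.

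Over the 11 group means of log2 CPM, the genes most like each member were found among 10475 genes with a mean of at least 5 CPM. Maco1, Slc7a7 and Fzd7 followed Myc (Pearson r = 0.998 for each), Zbed5, Cbx1 and Eri1 followed Mycn (0.997, 0.996 and 0.995), and Hadh, Fat2 and Rhoa followed Mycl (0.998, 0.996 and 0.995). Chchd10, Tgif1 and Prx were nearest to Max (0.956, 0.944 and 0.942), Tpp1, Dlgap3 and Yif1b to Mnt (0.976, 0.964 and 0.959), and Wee1, Ube2c and Ndufa3 to Mxi1 (0.982, 0.979 and 0.979). Eed, Clca3b and Wdr24 were nearest to Mxd3 (0.968, 0.958 and 0.955), and Rnf14, Amot and Tmem9b to Mxd4 (0.920, 0.918 and 0.904). The group means share libraries and depth, and the values of every member are the highest of 10475 genes compared. These correlations are a description only.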

How the data were processed

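RNA-seq libraries of mESCs were compared over 11 groups. Libraries were made with a NuGen kit per the labels. The submitters' processing notes name mm10, STAR 2.5.2a, HTSeq and DESeq. The strand setting of the counting is not given in the sources used here. The deposited values are counts per gene, not normalized by the authors. The 36 columns carry a group but no replicate number, so library numbers follow column order and the pool of each library in a split group is unknown. Total counts per library ran from 10405696 to 26635239.

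edgeR 4.0.16 (R 4.3.3) was run with 1 coefficient per group, TMM scaling and filterByExpr, which kept 17702 genes with 99.92% of counts; counting error is larger for the low members. Quasi-likelihood tests were adjusted by Benjamini-Hochberg over all kept genes, with a threshold of 0.05. DESeq2 1.42.0, RLE scaling, total counts, no filter, the compared groups alone, a pool term and leaving out each library were alternatives. Scripts were tested on simulated data. CPM per kb used the union of exons of GENCODE M21 (GRCm38, the same build as mm10). No pair of the 45 within-group pairs had a chi-square per gene under 2.22. The members and gene lists were chosen with earlier results of these data known. All 8 members are named, with the 3 genes most like each member. Of any other list at most 4 genes are named per comparison, those with the largest called changes. Hk2, Shmt2 and the soft serum value of Mga are exceptions, given after their values were seen.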

Additional observations from a re-analysis of the deposited data

How the results depend on the processing

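The directions of the 4 PD03 changes of Myc, Mycn, Mycl, Mnt and Mxi1 held under every alternative run, and their calls too, except that of Mnt on stiff hydrogels in serum+LIF without 1 library. RLE scaling moved the median of all genes by -0.00763 to 0.0159 (log2) and total counts by -0.0719 to 0.0585. No paired analysis was possible because the columns of the count table carry no replicate number.

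Counts of members called moved as follows. For soft against stiff at 24 h (2 called), RLE scaling, total counts, no filter and the compared groups alone gave 1 each, and the pool term 1 to 2. In serum (1 called) the groups alone and the pool term gave 0. In serum+PD03 (1) no filter gave 0 and the pool term 0 to 1, and in serum+LIF+PD03 (2) no filter gave 0, the pool term 0 to 1 and DESeq2 3. Soft against plastic (4) gave 0 to 2 with the pool term. Stiff against plastic (0) gave 3 with total counts, 1 without a filter, 2 with the groups alone and 1 by DESeq2. LIF in serum on stiff hydrogels (0) gave 1 by DESeq2. The time comparison gave 0 to 2 with the pool term on soft (5) and 1 to 2 on stiff hydrogels (3). Stiffness by PD03 without LIF (0) gave 1 without a filter and 2 by DESeq2, and LIF by PD03 on stiff hydrogels (0) gave 1 without a filter, with the groups alone and by DESeq2. The cause was not tested.

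Leaving out each library in turn gave 0 to 1 for soft against stiff at 24 h, in serum and in serum+PD03, 1 to 2 in serum+LIF+PD03, 2 to 5 against plastic for soft and 0 to 2 for stiff, 3 to 5 for time on soft and 1 to 3 on stiff hydrogels, 0 to 1 for stiffness by time and 0 to 1 for LIF by PD03 on stiff hydrogels. Mycl between 24 h and 48 h on soft hydrogels was 0.38 (log2), and -0.14 at its lowest under the pool term, where it was not called. Over all member changes and alternatives, 182 values called in neither fit changed sign. The members called with PD03 numbered 5 to 7 when a library was left out, and 5 to 7 with the pool term. Depth limits Mxd3, Mxd4 and Mycl most, whose intervals are widest.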

Other observations

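Partners of Myc and genes of its turnover were called in both directions with PD03, as were all genes (5139 higher and 5038 lower of 17702 in soft serum). Of 16 listed genes, 7 were called higher and 7 lower in soft serum, and 7 higher and 8 lower in stiff serum (edgeR), with medians of -0.01 and -0.10 (log2). Sin3b, a corepressor scaffold that Mxd proteins recruit, rose by 0.998 ± 0.05 SE on soft and 0.999 ± 0.06 on stiff hydrogels (log2). Wdr5, a cofactor of Myc at chromatin, rose by 0.82 ± 0.05 and 0.73 ± 0.06. Ruvbl1, a helicase of chromatin remodelling complexes, fell by -0.65 ± 0.05 and -0.79 ± 0.06, and Usp28, a deubiquitinase known to stabilise Myc, by -0.53 ± 0.04 and -0.52 ± 0.05.

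Of 6 genes listed as lowered by Myc with Miz1, 5 were called higher and 1 lower with PD03 in each of the 4 comparisons. Of all 17702 genes, 5139, 5027, 4915 and 5017 were called higher. Cdkn2a is on the list but is not known to be lowered this way. It had 2.11 to 8.57 CPM over all libraries, and Cdkn2b, also low, 0.819 to 5.45 CPM. Cdkn1b, an inhibitor of cyclin-dependent kinases, rose by 1.74 ± 0.08 SE on soft and 1.96 ± 0.09 on stiff hydrogels in serum, and Ndrg1, a stress-responsive gene, by 1.47 ± 0.09 and 1.69 ± 0.10. The medians of the list were 1.18, 0.85, 1.16 and 1.35 (log2), with all genes between -0.01 and 0.01. Gadd45a, a stress and DNA damage gene, went the other way, by -1.82 ± 0.09 and -1.57 ± 0.11. At 48 h against 24 h in serum+LIF, 2 of the 6 were called lower on soft and 3 on stiff hydrogels, and 0 were called higher by edgeR. Of all 17702 genes, 2024 and 2305 were called lower. No pool term was fitted for this list. The list was chosen with earlier results of these data known, and whether its changes follow those of Myc was not tested.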
